A study of Mus musculus with 7 samples.

Results

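The transcripts of 10 genes that mark cholinergic and motor neurons were followed in the cervical spinal cord of hSOD1G93A mice with and without *Neat1*. The genes were found by their GENCODE M21 symbols, and they are 10 of the 55487 genes counted. They fall into 3 roles. The 4 transmitter genes *Chat*, *Slc18a3*, *Slc5a7* and *Ache* make, store, recycle and break down acetylcholine. The 4 identity genes are *Prph*, *Isl1*, *Isl2* and *Mnx1*, and the 2 markers of fast motor neurons are *Chodl* and *Mmp9*. The roles were set by what the genes are known to do, but the members were chosen with earlier results of these data known.

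The cords came from mice 8 weeks old, 4 of them *Neat1*-KO; hSOD1G93A and 3 *Neat1*-WT; hSOD1G93A, and each mouse gave 1 RNA-seq library. *Neat1*-KO stands for mice with both copies of this long non-coding RNA gene disrupted and *Neat1*-WT for mice with both copies intact, obtained from the same type of cross. Both groups share the hSOD1G93A transgene, a mutant human *SOD1* that models familial ALS, and mice without the transgene were not analysed here. The comparison asks which transcripts differ when *Neat1* is missing from a cord that carries the transgene. The libraries are named by genotype and by the number in the sample labels, which is 1 to 4 for *Neat1*-KO and 2 to 4 for *Neat1*-WT. The whole cervical cord was used, so the values are sums over all its cells. Fewer cells of a type and less RNA per cell cannot be told apart in them.

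Total counts per library were between 19661878 and 26031517, and mitochondrial genes held between 3.694% and 5.239% of them. *Neat1* itself was between 4.04 and 5.52 CPM (counts scaled to the size of each library) in the 4 *Neat1*-KO libraries and between 80.5 and 118 CPM in the 3 *Neat1*-WT libraries, which matches the labels (log2 fold change -4.25 ± 0.15 SE, edgeR adjusted p = 1.52e-08). The summed level of the nerve root Schwann cell genes *Prx*, *Ncmap* and *Egr2* was between 6.267 and 55.99 CPM in *Neat1*-KO and between 6.473 and 48.84 CPM in *Neat1*-WT, so the libraries differed in it within both genotypes. *Neat1*-WT replicate 4 also had 17.03 CPM of skeletal muscle genes, against 2.25 to 2.941 CPM in the other libraries.

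Acetylcholine is made from choline and acetyl-CoA by choline acetyltransferase, the product of *Chat*. The vesicular transporter encoded by *Slc18a3* loads it into synaptic vesicles, acetylcholinesterase (*Ache*) splits it after release, and the high-affinity transporter encoded by *Slc5a7* takes the choline back up. In the spinal cord the motor neurons of the ventral horn are the largest cholinergic cells, but cholinergic interneurons and preganglionic autonomic neurons use the same genes. *Isl1*, *Isl2* and *Mnx1* (also called Hb9) encode homeodomain transcription factors that set motor neuron fate in the embryo. *Prph* encodes peripherin, an intermediate filament of neurons that send axons out of the central nervous system. Among motor neurons, those of fast-fatigable motor units express *Chodl*, which encodes the membrane protein chondrolectin, and *Mmp9*, a matrix metalloproteinase. These units are known to lose their muscle contacts first in SOD1 mutant mice.

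*Chat* and *Slc18a3* share a locus. *Slc18a3* (chr14:32462438-32464850, GRCm38, minus strand, 1 exon of 2413 bp) lies inside the first intron of *Chat* (chr14:32408203-32465989, minus strand), which spans 3764 bp from 32462043 to 32465806. The gene starts are 1139 bp apart, and the genes share no exon base in GENCODE M21, so a read within the exons of one is not within those of the other. The other members are *Slc5a7* (chr17:54273590-54299034), *Ache* (chr5:137287519-137294466), *Prph* (chr15:99055174-99058978), *Isl1* (chr13:116298281-116309689), *Isl2* (chr9:55538672-55546180), *Mnx1* (chr5:29473034-29478470), *Chodl* (chr16:78930948-78951733) and *Mmp9* (chr2:164940780-164955850), all protein-coding. *Ache* shares 98 bp of exon, 2.1% of its exon length, with *Gm42456* on the opposite strand.

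The sequences before the gene starts are shown for the genes that the comparisons turn on, namely the neighbours *Chat* and *Slc18a3*, and *Slc5a7*, *Prph* and *Chodl*, which had low p-values. They come from RefSeq on GRCm38.p6, where 9 of the 10 members had an entry and *Mmp9* had none. Each is the 250 bases before the RefSeq start, written 5′ to 3′ in the direction of the gene. For *Chat* the first 170 of these bases are given, because GENCODE places the other bases in its first exon. Capitals mark matches, on either strand, to TAAT (the core of many homeodomain sites), TGACGT (part of the cAMP response element) or TATAAA (the TATA box).
*Chat*, chr14:32465990-32466159, minus strand: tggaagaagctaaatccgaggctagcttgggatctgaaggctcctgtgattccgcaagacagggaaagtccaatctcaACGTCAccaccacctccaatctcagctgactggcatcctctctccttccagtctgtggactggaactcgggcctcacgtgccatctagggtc
*Slc18a3*, chr14:32464851-32465100, minus strand: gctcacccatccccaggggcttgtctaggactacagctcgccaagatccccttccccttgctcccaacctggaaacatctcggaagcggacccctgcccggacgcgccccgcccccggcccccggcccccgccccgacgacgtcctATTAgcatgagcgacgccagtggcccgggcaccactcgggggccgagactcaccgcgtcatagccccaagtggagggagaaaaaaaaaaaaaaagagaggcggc
*Slc5a7*, chr17:54299035-54299284, minus strand: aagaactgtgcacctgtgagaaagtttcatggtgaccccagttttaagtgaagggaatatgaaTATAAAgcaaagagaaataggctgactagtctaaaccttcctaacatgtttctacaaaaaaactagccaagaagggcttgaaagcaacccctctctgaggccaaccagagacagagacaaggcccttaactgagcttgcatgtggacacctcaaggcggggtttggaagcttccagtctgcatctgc
*Prph*, chr15:99054924-99055173, plus strand: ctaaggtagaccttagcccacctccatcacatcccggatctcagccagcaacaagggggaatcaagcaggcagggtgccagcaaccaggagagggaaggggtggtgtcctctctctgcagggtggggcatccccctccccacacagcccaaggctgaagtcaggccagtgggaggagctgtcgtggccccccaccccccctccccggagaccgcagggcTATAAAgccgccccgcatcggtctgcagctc
*Chodl*, chr16:78930698-78930947, plus strand: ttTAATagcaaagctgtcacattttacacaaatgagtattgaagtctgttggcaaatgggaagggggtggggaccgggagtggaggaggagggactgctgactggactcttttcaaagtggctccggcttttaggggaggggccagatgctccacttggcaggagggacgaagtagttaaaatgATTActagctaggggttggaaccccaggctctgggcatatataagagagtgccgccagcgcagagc

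The windows of these neighbours in the cholinergic locus differed in their letters. That of *Slc18a3* had 66.0% G or C and that of *Chat* 54.8%, while the median over 32851 windows of the same length was 52.4%. TGACGT or its reverse complement stood 172 bases before the RefSeq start of *Chat*, and it was present in 3 of the 9 member windows (*Chat*, *Isl1* and *Isl2*) and in 6.47% of all windows. TAAT was present in 4 of 9, *Slc18a3*, *Isl1*, *Mnx1* and *Chodl*, against 54.9% of all windows. TATAAA was present in 2 of 9, at 187 bases before the start of *Slc5a7* and 31 bases before that of *Prph*, and in 12.4% of all windows. *Isl2* holds the palindrome of TGACGT, which matches on both strands. No match of one motif overlapped a match of another in these windows, and a match is a description of the letters only.

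Levels of different genes were compared as CPM per kilobase of exon (RPKM). All 10 genes had at least 29 counts in every library and all passed the filter on low counts. *Ache* was first with a mean level of 49.04 RPKM over the 7 libraries, followed by *Prph* with 46.62, *Slc18a3* with 33.68 and *Slc5a7* with 23.18 RPKM. *Chodl* (7.758 RPKM) and *Chat* (7.443 RPKM) came next, then *Mmp9* (3.398), *Mnx1* (1.977), *Isl2* (1.634) and *Isl1* (0.4942 RPKM). The ranges over libraries overlapped between *Ache* and *Prph*, between *Slc18a3* and *Slc5a7*, between *Chodl* and *Chat* and between *Mnx1* and *Isl2*, so these neighbours in the order did not separate. The other neighbours did. The enzyme that makes acetylcholine was thus the least abundant transcript of its role per kilobase, and the fate factors of the embryo were low in the adult cord.

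**Figure D1:**
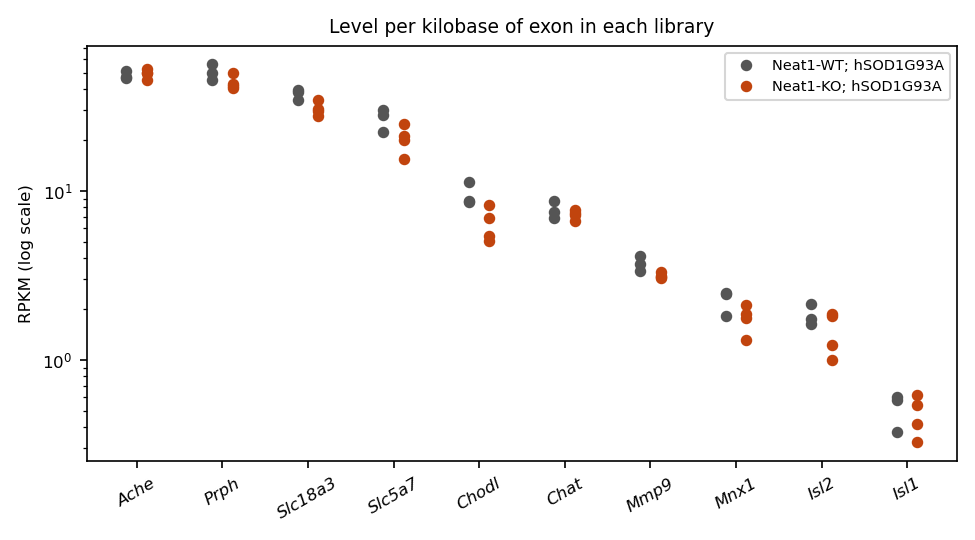
Level of each gene in each library, in CPM per kilobase of exon (RPKM) on a log scale, ordered by the mean over the 7 libraries, with *Neat1*-WT; hSOD1G93A in grey and *Neat1*-KO; hSOD1G93A in orange. *Ache* and *Prph* are highest, at means of 49.04 and 46.62 RPKM, and *Isl1* is lowest, at 0.4942 RPKM.

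No member passed the threshold set for the comparison, an adjusted p under 0.1 with an absolute log2 fold change over 0.58, in the edgeR quasi-likelihood test over 18449 genes. Over all genes 0.0325% passed it. The fold changes leaned to one side. Of the 10 members 9 had a lower mean in *Neat1*-KO, where 48.2% of all genes did, and 4 of them (*Chodl*, *Slc18a3*, *Slc5a7* and *Prph*) had an unadjusted p under 0.05 with a lower level, against 2.4% of all genes. No member had an unadjusted p under 0.05 with a higher level, against 2.24% of all genes. For 2 members, *Chodl* and *Mmp9*, the highest *Neat1*-KO library was under the lowest *Neat1*-WT library, against 2.57% of all genes. The reverse was true of 0 members and of 2.91% of all genes. The median log2 fold change was -0.27 over the members and 0.01 over all genes. It was -0.20 for the transmitter genes, -0.26 for the identity genes and -0.41 for the 2 fast markers. The members share their libraries and are not independent of one another, and the list was not tested as a set. It was also chosen with earlier results of these data known, so the shares over all genes are a description only.

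**Figure D2:**
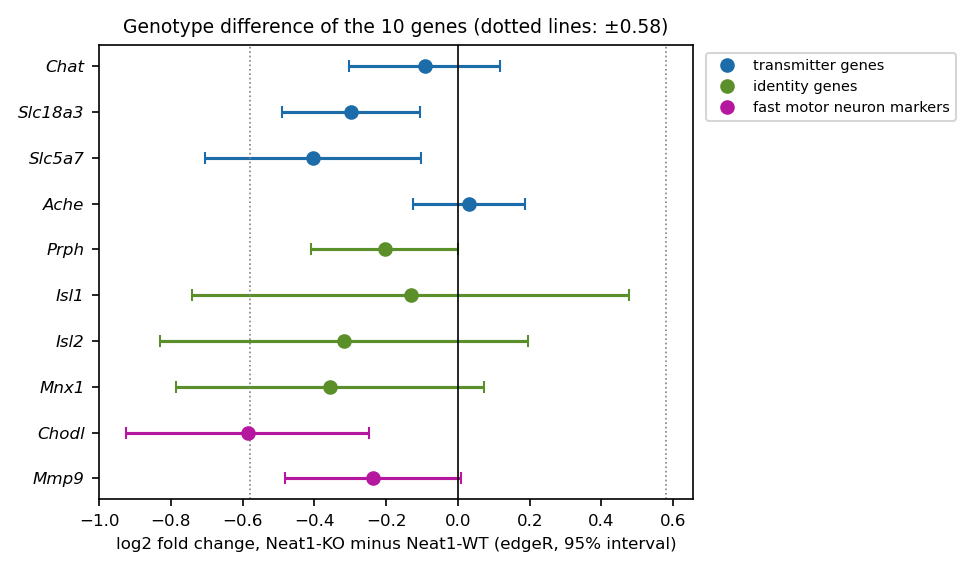
Log2 fold change of each gene between the 4 *Neat1*-KO and the 3 *Neat1*-WT libraries, with the 95% interval from edgeR, coloured by role. The points of 9 of the 10 genes lie left of 0, that of *Chodl* (-0.59) lies at the fold limit of 0.58 drawn as a dotted line, and *Ache* (0.03) lies right of 0.

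Among the transmitter genes, *Chat* and *Ache* were close between the genotypes while both transporter genes were lower in *Neat1*-KO before adjustment. *Chat* was at 33.70, 31.24, 34.80 and 36.42 CPM in the *Neat1*-KO libraries and at 41.10, 32.54 and 35.23 CPM in the *Neat1*-WT libraries, each in the order of their numbers. The groups overlapped and *Neat1*-WT replicate 2 alone stood above all *Neat1*-KO libraries. The means were 34.0 ± 2.18 (SD, n = 4) and 36.3 ± 4.38 CPM (SD, n = 3). On the log2 scale the difference was -0.09 with a 95% interval from -0.30 to 0.12 (edgeR adjusted p = 0.992). Without *Neat1*-WT replicate 2 it was 0.01. The interval allows a level in *Neat1*-KO between 81.0% and 109% of that in *Neat1*-WT.

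*Slc18a3*, the vesicular transporter gene within the *Chat* intron, was at 83.38, 67.08, 74.10 and 71.51 CPM in *Neat1*-KO and at 96.14, 93.56 and 83.05 CPM in *Neat1*-WT. Of the *Neat1*-KO libraries 3 were under every *Neat1*-WT library, and replicate 1 reached just above *Neat1*-WT replicate 4. The log2 fold change was -0.30 ± 0.09 (SE), which is 81.4% of the *Neat1*-WT level, with an unadjusted p of 0.00533 and an adjusted p of 0.840 in edgeR. The exact permutation test over the 35 assignments of the libraries to genotypes, whose smallest possible two-sided p is 0.0286, gave p = 0.0857.

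*Slc5a7*, the choline transporter gene, varied more between mice. It was at 112.7, 87.72, 140.8 and 118.6 CPM in *Neat1*-KO and at 170.8, 125.6 and 159.7 CPM in *Neat1*-WT, and the groups overlapped because *Neat1*-KO replicate 3 lay above *Neat1*-WT replicate 3. The means were 115 ± 21.8 and 152 ± 23.6 CPM (SD, n = 4 and 3). The log2 fold change was -0.40 ± 0.14 (SE; edgeR unadjusted p = 0.0127, adjusted p = 0.992, exact permutation p = 0.114).

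*Ache* was the one member with a higher mean in *Neat1*-KO. It was at 243.9, 231.9, 209.7 and 229.7 CPM in *Neat1*-KO and at 237.6, 217.2 and 216.9 CPM in *Neat1*-WT, so that both groups covered the same range. Its log2 fold change of 0.03 had a 95% interval from -0.12 to 0.19, and it was 0.00 without *Neat1*-KO replicate 1. The acetylcholine-splitting enzyme is made by many neurons besides cholinergic ones.

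**Figure D3:**
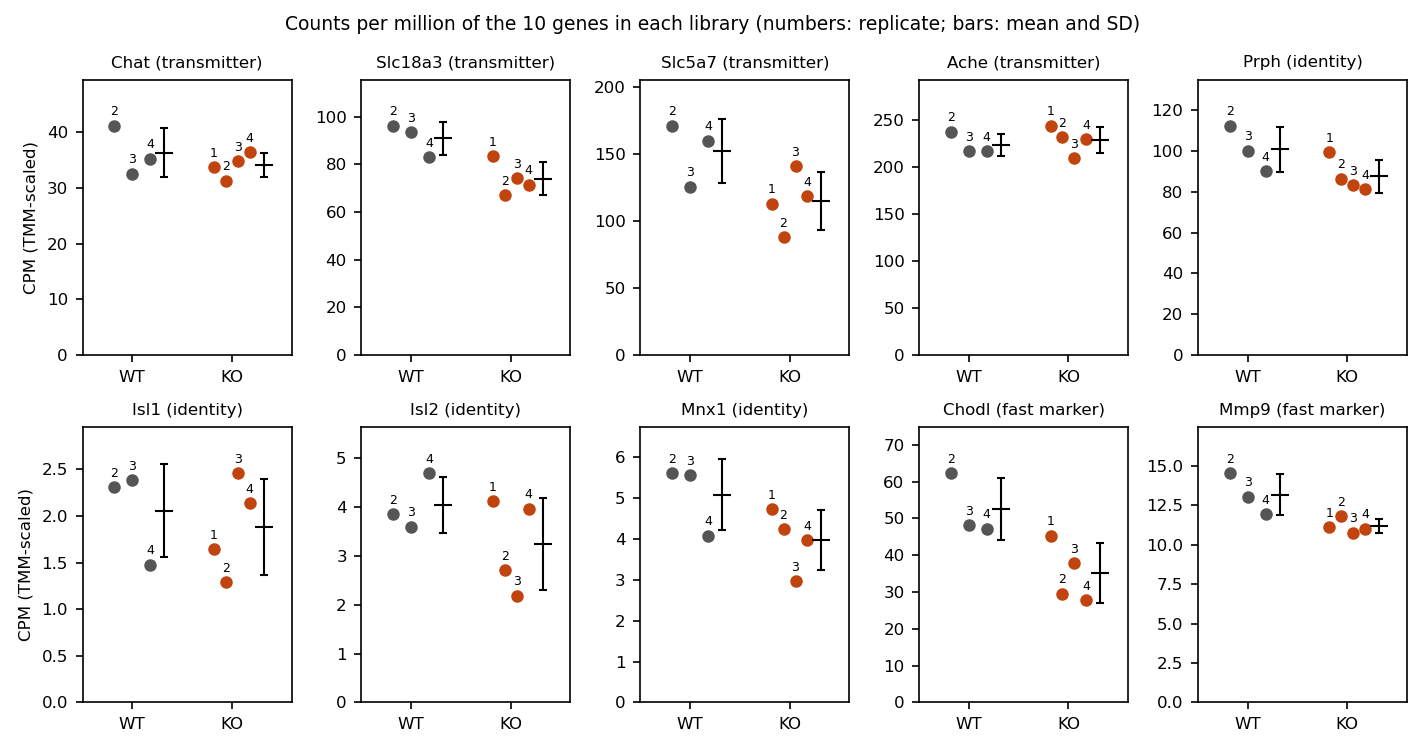
CPM of each gene in each library, scaled by TMM factors, with *Neat1*-WT in grey and *Neat1*-KO in orange, the replicate number above each point, and the mean and SD beside the points; every axis starts at 0. *Chodl* and *Mmp9* are the genes whose highest *Neat1*-KO library (45.36 and 11.81 CPM) lies under the lowest *Neat1*-WT library (47.21 and 11.93 CPM).

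The 4 identity genes all had lower means in *Neat1*-KO, and all 4 overlapped between the genotypes. *Prph*, the filament gene, was at 99.41, 86.26, 83.24 and 81.12 CPM in *Neat1*-KO and at 112.2, 100 and 90.09 CPM in *Neat1*-WT. Its log2 fold change of -0.20 ± 0.09 (SE) had an unadjusted p of 0.0499 and an adjusted p of 0.992 in edgeR, and was -0.12 without *Neat1*-WT replicate 2 (adjusted p = 1). Replicates 2, 3 and 4 of *Neat1*-KO lay under all *Neat1*-WT libraries.

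The 3 transcription factor genes were measured with little depth. *Mnx1* was at 4.726, 4.233, 2.969 and 3.966 CPM in *Neat1*-KO and at 5.613, 5.556 and 4.079 CPM in *Neat1*-WT, with a log2 fold change of -0.36 and a 95% interval from -0.79 to 0.07. *Isl2* was at 4.110, 2.701, 2.181 and 3.966 CPM against 3.847, 3.595 and 4.690 CPM, with -0.32 and an interval from -0.83 to 0.19. It was -0.17 without *Neat1*-KO replicate 3 and -0.20 without *Neat1*-WT replicate 4. *Isl1* rested on 29 to 56 counts per library. It was at 1.644, 1.290, 2.459 and 2.136 CPM in *Neat1*-KO and at 2.308, 2.381 and 1.478 CPM in *Neat1*-WT. Its log2 fold change of -0.13 had an interval from -0.74 to 0.48 and was 0.02 without *Neat1*-KO replicate 2. For *Isl1* a level in *Neat1*-KO anywhere between 59.8% and 139% of that in *Neat1*-WT was not distinguishable at this depth. None of the 3 had an unadjusted p under 0.05.

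*Prph*, *Isl1* and *Isl2* are also used by sensory ganglion neurons. The summed level of 9 sensory ganglion genes was 14.39 to 15.36 CPM in *Neat1*-KO and 16.79 to 17.79 CPM in *Neat1*-WT, and did not overlap. It was carried by *Pou4f1* (7.65 against 8.70 CPM) and *P2rx3* (5.20 against 6.08 CPM), each of which overlapped between the genotypes. The nociceptor genes *Scn10a*, *Scn11a*, *Trpv1*, *Mrgprd* and *Prdm12* had at most 14 counts in any library. *Neat1*-WT replicate 4 had the highest counts of *Scn11a* (14), *Prdm12* (9) and *Scn10a* (5), but not of *Trpv1* or *Mrgprd*. The part of these cells in the result was not tested.

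*Chodl* had the largest fold change of the members. It was at 45.36, 29.59, 37.81 and 27.73 CPM in *Neat1*-KO and at 62.33, 48.18 and 47.21 CPM in *Neat1*-WT, and every *Neat1*-KO library lay under every *Neat1*-WT library. The means were 35.1 ± 8.11 (SD, n = 4) and 52.6 ± 8.46 CPM (SD, n = 3), so the level in *Neat1*-KO was 66.8% of that in *Neat1*-WT. The log2 fold change was -0.59 ± 0.16 (SE), with a 95% interval from -0.93 to -0.25, an unadjusted p of 0.00259 and an adjusted p of 0.719 in edgeR. The exact permutation test gave p = 0.0571.

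Whether *Chodl* passed the threshold depended on the fit. It did so in 4 of 18 alternatives, namely with DESeq2 (adjusted p = 0.0627), with every counted gene kept in edgeR (adjusted p = 2.12e-06), with the replicate number as a block (adjusted p = 0.037) and without *Neat1*-KO replicate 1 (log2 fold change -0.74, adjusted p = 0.0567). Number 1 exists only in *Neat1*-KO, so *Neat1*-KO replicate 1 takes no part in the genotype difference of the block fit. That fit (-0.73) and the fit without this library are therefore nearly the same comparison. The adjusted p of *Chodl* lay between 2.12e-06 and 1 over the alternatives and its log2 fold change between -0.76 and -0.44, always on the lower side. With every counted gene kept, its SE was 0.0997 in place of 0.157, at nearly the same log2 fold change (-0.59). More genes passed in all 4 fits. Their numbers over all genes were 27, 124, 39 and 31 in the order above, against 6 in the main fit.

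*Mmp9*, the other marker of fast motor neurons, was at 11.10, 11.81, 10.76 and 11.02 CPM in *Neat1*-KO and at 14.53, 13.03 and 11.93 CPM in *Neat1*-WT. The groups did not overlap, but the gap between *Neat1*-KO replicate 2 and *Neat1*-WT replicate 4 was narrow. The *Neat1*-KO libraries were close to one another (SD 0.448 CPM), and the *Neat1*-WT libraries were spread more widely (SD 1.30 CPM). The log2 fold change was -0.24 with a 95% interval from -0.48 to 0.01 (edgeR adjusted p = 0.992), and the exact permutation p was 0.0286, the smallest possible here. Neutrophils and osteoclasts also express *Mmp9*. The sum of 7 neutrophil genes was 2.06 to 4.152 CPM in *Neat1*-KO and 3.161 to 4.617 CPM in *Neat1*-WT, and none of them exceeded 37 counts in a library. That of 4 osteoclast genes was 7.208 to 12.12 and 8.736 to 11.32 CPM. It was nearly all *Ctsk* (means 8.85 and 9.23 CPM), as *Acp5*, *Ocstamp* and *Dcstamp* had at most 7 counts in any library. The part of these cells in the *Mmp9* result was not tested.

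The members tended to be high or low in the same mice. Each gene's log2 level was set against its own mean over the 7 libraries. *Neat1*-WT replicate 2 was the highest library for 7 of the 10 genes and under the mean for 0 of them. *Neat1*-KO replicate 2 was under the mean for 9 genes and the lowest library for 4. *Neat1*-KO replicate 3 was under it for 8 and the lowest for 4. *Neat1*-KO replicate 1 was under the mean for only 4 genes and, averaged over the members, lay at 0.02, above the 0 of the overall mean. The other *Neat1*-KO libraries lay at -0.23, -0.13 and -0.09, and the *Neat1*-WT libraries at 0.28, 0.11 and 0.05. Without *Neat1*-WT replicate 2, 8 of the 10 genes remained lower and 2 rather than 4 had an unadjusted p under 0.05. Without *Neat1*-WT replicate 4, 9 were lower and 6 had. Of all genes, 49.2% were lower in the fit without *Neat1*-WT replicate 2 and 49% in that without replicate 4. The number of all genes with an unadjusted edgeR p under 0.05 also moved, to 577 and 955, from 856 with all libraries.

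**Figure D4:**
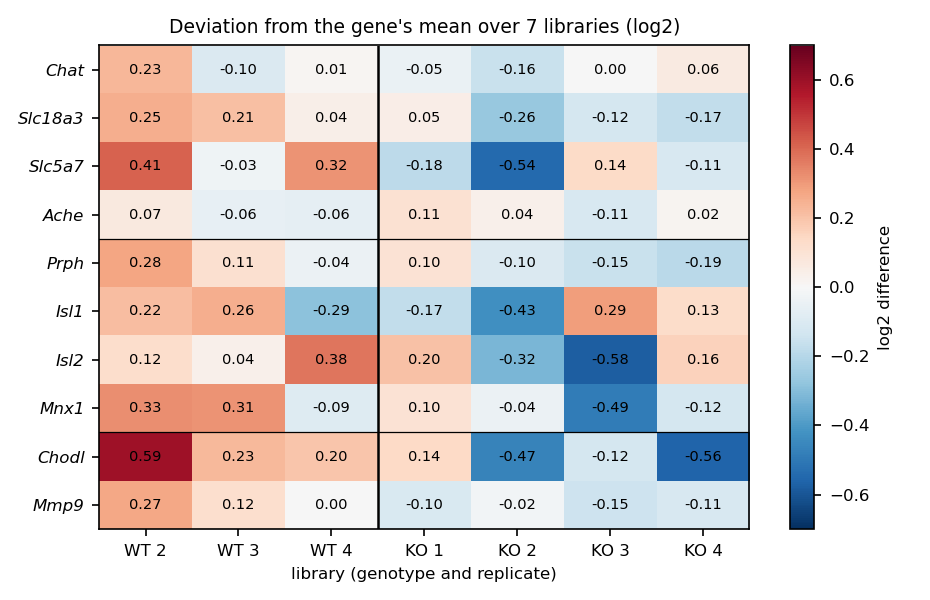
Deviation of each gene in each library from its mean over the 7 libraries, on the log2 scale, with red above and blue below the mean; horizontal lines part the transmitter, identity and fast marker genes, and the vertical line parts the genotypes. *Neat1*-WT replicate 2 is above the mean for all 10 genes, and *Neat1*-KO replicate 2 is below it for 9.

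The roles followed this pattern in different degrees. The 4 transmitter genes averaged 0.24, 0.01 and 0.08 in *Neat1*-WT replicates 2 to 4 and -0.02, -0.23, -0.03 and -0.05 in *Neat1*-KO replicates 1 to 4. The identity genes averaged 0.24, 0.18 and -0.01 against 0.06, -0.22, -0.23 and -0.01. The 2 fast markers were spread the most, with 0.43, 0.17 and 0.10 against 0.02, -0.24, -0.13 and -0.34. In the averages of the fast markers and of the transmitter genes every *Neat1*-WT library lay above every *Neat1*-KO library, and in the identity genes the groups overlapped. For the transmitter genes the margin was narrow, 0.007 in *Neat1*-WT replicate 3 against -0.019 in *Neat1*-KO replicate 1. Taken singly, 0 of the 4 transmitter genes were without overlap. The averages were not set beside those of other genes.

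*Chat* was compared with each other member over the 7 libraries on log2 CPM, in 9 relations. Only *Slc5a7* followed it with an unadjusted p under 0.05 (Pearson r = 0.778, exact permutation p = 0.0387, adjusted p = 0.348; Spearman rho = 0.714, exact permutation p = 0.0881, adjusted p = 0.793). Centred on the genotype means, r was 0.772, and without the 2 libraries farthest from the median of *Chat*, *Neat1*-WT replicate 2 and *Neat1*-KO replicate 2, it was 0.223 (exact permutation p = 0.742). The value of r thus fell when both of these libraries, which also set the range of *Chat*, were left out. It was between 0.660 and 0.839 when any 1 library was left out. *Slc18a3*, the gene in the first intron of *Chat*, had r = 0.457 (exact permutation p = 0.311, adjusted p = 0.550; Spearman rho = 0.321, exact permutation p = 0.498, adjusted p = 1) and r = -0.875 without the same libraries. For the other 7 members r was between 0.185 and 0.489 with adjusted exact permutation p of at least 0.550, and rho was between -0.04 and 0.39 with an adjusted exact permutation p of 1. None of the 9 relations held after adjustment. The genes whose levels were most like those of *Chat* over these libraries, among 18439 genes, included *Zfp558* (r = 0.980), *Sugt1* (0.968), *Pigg* (0.962) and *Kyat3* (0.956). The members were left out of this ranking.

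The ratio of each member to *Chat* in the same library was compared in 9 relations chosen after the values were seen. *Chodl* stood to *Chat* as 1.35, 0.947, 1.09 and 0.761 in *Neat1*-KO and as 1.52, 1.48 and 1.34 in *Neat1*-WT. These are CPM ratios and do not correct for length. *Neat1*-KO replicate 1 just exceeded *Neat1*-WT replicate 4, and the other *Neat1*-KO libraries lay below all *Neat1*-WT libraries. The log2 difference was -0.51, with a 95% interval from -1.05 to 0.03 (exact permutation p = 0.0857, adjusted p = 0.343). For *Slc5a7* it was -0.32 (exact permutation p = 0.0857) and for *Slc18a3* -0.21 (exact permutation p = 0.114), both with an adjusted p of 0.343. The adjusted p of the other 6 was between 0.450 and 0.857. A difference of any member from *Chat* in its response was therefore not shown.

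Genes of the wider pathways were taken from lists made from what the genes are known to do. Like the members, these lists were chosen with earlier results of these data known. Of 23 other cholinergic genes (receptors, choline carriers and esterase partners) 21 were tested. In *Neat1*-KO 11 had a lower and 10 a higher mean, 0 passed the threshold, and the median log2 fold change was -0.01. Over all genes 48.2% were lower and 0.0325% passed the threshold. The edgeR unadjusted p was under 0.05 for 2, which were lower, against 2.4% of all genes. *Bche*, the gene of butyrylcholinesterase, was at 12.3 ± 1.76 CPM in *Neat1*-KO (SD, n = 4) and 15.9 ± 1.24 CPM in *Neat1*-WT (SD, n = 3), with -0.37 on the log2 scale (edgeR adjusted p = 0.992, exact permutation p = 0.0286). *Slc44a1*, a choline carrier of many cells, was at 235 and 267 CPM, with -0.18 (edgeR adjusted p = 0.992, exact permutation p = 0.0571). The libraries did not overlap for either, which was so on the lower side for 2.57% of all genes. *Slc44a1* was among the 3 genes of the list with the highest CPM, which does not correct for length. Of the other 2, *Lynx1*, a modulator of nicotinic receptors, had a log2 fold change of -0.02 and the nicotinic receptor subunit gene *Chrnb2* one of 0.01.

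All 19 other motor neuron genes were tested, of which 13 were lower and 6 higher, and 0 passed the threshold. Over all genes 48.2% were lower and 0.0325% passed it. Their median log2 fold change was -0.09. The edgeR unadjusted p was under 0.05 for 3, which were lower and had an adjusted p of 0.992. Among all genes 2.4% had an unadjusted p under 0.05 with a lower level, and 2.57% were lower without overlap. *Gfra1*, a GDNF co-receptor, was at 74.85, 78.28, 75.16 and 74.03 CPM in *Neat1*-KO and at 98.45, 79.74 and 88.71 CPM in *Neat1*-WT, without overlap (-0.23 on the log2 scale, exact permutation p = 0.0286). *Calca*, the gene of calcitonin gene-related peptide, had -0.38 (exact permutation p = 0.229) with 69.39 CPM in *Neat1*-WT replicate 2 and 32.61 to 46.40 CPM in the other libraries, and *Lhx4*, a homeodomain factor gene, had -0.34 (exact permutation p = 0.0857). The genes of the list with the highest CPM, which does not correct for length, were *Sv2a*, *Ret* and *Spp1*, with log2 fold changes of 0.07, -0.17 and -0.16. *Ret* encodes the signalling receptor for GDNF and *Spp1* encodes osteopontin.

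**Figure D5:**
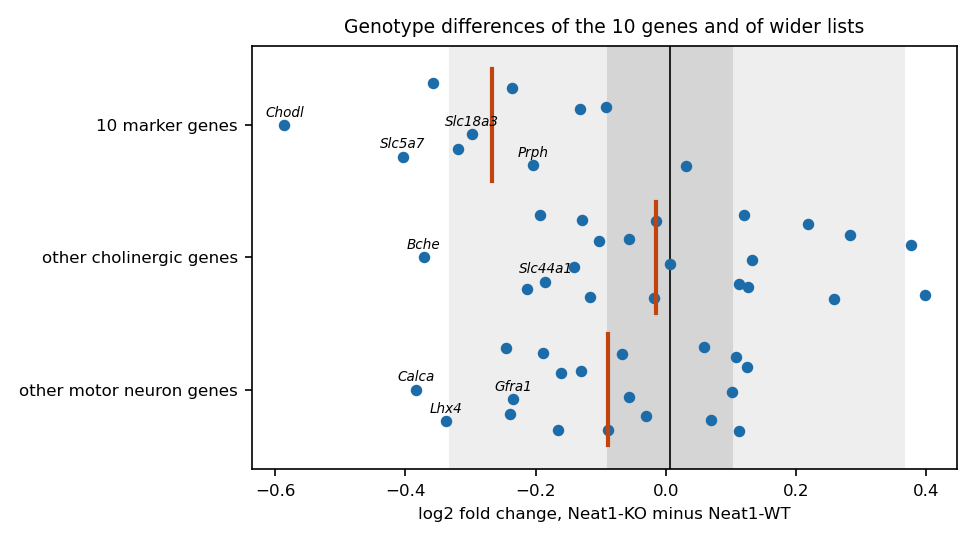
Log2 fold change between *Neat1*-KO and *Neat1*-WT of the 10 genes, of 21 other cholinergic genes and of 19 other motor neuron genes (points, spread vertically only to be seen), with the list median in red, all genes as the line of their median (0.01) and grey bands of their middle 50% (-0.09 to 0.10) and 90% (-0.33 to 0.37), and names where the unadjusted p is under 0.05. The list medians are -0.27, -0.01 and -0.09.

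The summed level of pan-neuronal genes overlapped between the genotypes. The sum of 7 pan-neuronal genes, *Snap25* and *Map2* among them, was between 5150 and 5604 CPM in *Neat1*-KO and between 5227 and 5878 CPM in *Neat1*-WT, and 0 of the 7 had an unadjusted edgeR p under 0.05. The sum of 5 genes of spinal interneurons was 1163 to 1231 CPM in *Neat1*-KO and 1071 to 1138 CPM in *Neat1*-WT, without overlap and with *Neat1*-KO higher. In that list the glycine transporter gene *Slc6a5* had a log2 fold change of 0.20 (edgeR adjusted p = 0.992, exact permutation p = 0.0571) and *Gad1*, which encodes a GABA-making enzyme, 0.14 (edgeR adjusted p = 0.992, exact permutation p = 0.0286). The rest of the list overlapped between the genotypes, with *Slc32a1* at 0.092 and *Gad2* at 0.056, while *Slc17a6* was lower at -0.055. The part of cell make-up in the values of the 10 genes was not tested beyond 2 fits added after the values were seen. With the pan-neuronal sum as a covariate 9 of the 10 were lower and 3 had an unadjusted edgeR p under 0.05. With the Schwann cell sum as a covariate 9 were lower and 3 had, and *Chodl* was at -0.48 on the log2 scale (edgeR adjusted p = 0.373). Of all genes, 48% were lower with the pan-neuronal sum and 48.6% with the Schwann cell sum. An unadjusted edgeR p under 0.05 was reached by 795 and 1190 of all genes in these fits, against 856 without a covariate.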

How the data were processed

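Poly(A) RNA of 7 cervical cords was prepared as directional libraries for paired-end sequencing. According to the submitters' processing notes, Trimmomatic 0.38, HISAT2 2.1.0, SAMtools 1.9 and featureCounts 1.6.3 were used with the mm10 genome. The authors deposited raw read counts per Ensembl gene, without normalization. The annotation release and strand setting of the counting are not given in the sources used here.

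GENCODE M21 named 55227 of the 55487 genes, and exon lengths were those of merged exons. In edgeR 4.0.16 (R 4.3.3), genes were filtered by filterByExpr, given TMM factors and fitted by the quasi-likelihood method, with Benjamini-Hochberg adjustment over 18449 genes (biological coefficient of variation 0.128). The call rule was an adjusted p under 0.1 with an absolute log2 fold change over 0.58. Intervals are at 95%. Log2 CPM used a pseudocount of 0.5, and permutation tests were exact and two-sided. The tests were tested on simulated data. Alternatives used DESeq2 1.42.0 and limma 3.58.1, other factors and filters, a replicate block, *Xist* as a covariate and each library left out in turn. Replicates of each genotype differed by more than sampling noise (chi-square per gene 8.06 to 17.7). The edgeR p-values set the genotype difference against the spread between mice, estimated with information from all genes tested. The named genes were the 10 members, *Neat1*, of each wider list the 3 genes with the highest CPM and those with an unadjusted p under 0.05, and the 5 genes most like *Chat*, of which some are not reported here, as is 1 gene of the Schwann cell list. Members and lists were chosen with earlier results of these data known. Markers of interneurons, sensory ganglia and other cells named in the text were chosen as examples after their values were seen.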

Additional observations from a re-analysis of the deposited data

How the results depend on the processing

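The log2 fold changes of *Slc18a3*, *Slc5a7*, *Prph*, *Isl2*, *Mnx1*, *Chodl* and *Mmp9* stayed negative in all 18 alternatives, but their size moved. *Slc5a7* was -0.20 with *Xist* as a covariate, and with every counted gene kept its adjusted p was 0.000999 at -0.41, under the fold limit. *Prph* was -0.12 without *Neat1*-WT replicate 2. *Isl2* was -0.48 with the replicate block, -0.17 with *Xist* or without *Neat1*-KO replicate 3, and -0.20 without *Neat1*-WT replicate 4. *Chat* was 0.028 with *Xist* as a covariate and ranged from -0.166 to 0.007 as libraries were left out. *Ache* was -0.001 with the replicate block and ranged from -0.003 to 0.076, and *Isl1* was 0.066 with *Xist* and ranged from -0.319 to 0.016. *Xist* was at most 0.161 CPM in every library, so that fit rests on counts near 0. *Chodl* passed the threshold with every counted gene kept (-0.59), with DESeq2 (-0.59), with the replicate block (-0.73) and without *Neat1*-KO replicate 1, with a range from -0.74 to -0.44 as libraries were left out. The number of members called was then 1 in place of 0 (0 to 1 as libraries were left out), and the number of all genes called was 124, 27 and 39 in the first 3 of these fits, against 6, and 3 to 31 as libraries were left out. The highest was without *Neat1*-KO replicate 1, the lowest without *Neat1*-WT replicate 3, and 11 were called without *Neat1*-WT replicate 4. Same-numbered libraries did not deviate together (correlations -0.276, -0.194 and -0.0223), while those with different numbers had correlations from -0.321 to 0.254. So few libraries cannot exclude a pairing by number. As the values showed none, the replicate block is given as an alternative only. It put 10 of 10 members and 50% of all genes lower. *Neat1*-KO replicate 1 has no *Neat1*-WT library of its number and takes no part in the genotype difference of that fit. The fit without this library also put 10 of 10 members lower, with 50.6% of all genes. With *Xist* as a covariate 7 of 10 members were lower, with 50% of all genes.

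The median of the other motor neuron genes was -0.015 with *Xist* as a covariate. That of all genes was 0.001 with median-of-ratios factors and with DESeq2, 0.008 with every counted gene, 0.003 with limma-voom, 0.000 with the replicate block and with *Xist*, and -0.002 to 0.010 as libraries were left out. Without the 2 libraries farthest from the median of *Chat*, its correlation was -0.875 with *Slc18a3*, -0.007 with *Ache*, -0.883 with *Prph*, -0.169 with *Isl1*, -0.653 with *Mnx1*, -0.770 with *Chodl* and -0.640 with *Mmp9*, and centred on genotype it was -0.052 with *Mnx1*. As libraries were left out it ranged from -0.0212 to 0.761 with *Slc18a3*, -0.210 to 0.390 with *Ache*, -0.436 to 0.616 with *Prph*, -0.467 to 0.434 with *Mnx1*, -0.0703 to 0.794 with *Chodl* and -0.533 to 0.672 with *Mmp9*, each lowest without *Neat1*-WT replicate 2. The log2 ratio of *Isl1* to *Chat* ranged from -0.25 to 0.15. The cause of these changes was not tested. Counts of 29 to 124 per library limit *Isl1*, *Isl2* and *Mnx1*.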
